A study of Mus musculus with 34 samples.

Results

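Respiratory complex I, NADH:ubiquinone oxidoreductase, is the largest enzyme of the mitochondrial electron transport chain, and its nuclear-encoded subunits carry gene symbols that start with Nduf. Every gene measured whose symbol starts with Nduf was taken as a member, with symbols assigned through the RefSeq accession of each probe. The symbol alone picked the single members, and no measured value did, but this gene family was chosen with earlier results of these data known. This gave 41 members of 19798 genes tested, measured by 53 probes. Of 49 protein-coding Nduf symbols in the RefSeq table, 8 had no probe matched by accession (Ndufaf6, Ndufa4l2, Ndufaf8, Ndufb1, Ndufaf2, Ndufb4c, Ndufa11 and Ndufb4b) and were not analysed here, nor were the mitochondrially encoded subunits. The sample channel was well above background on all 34 arrays for 40 of the 41 members, the exception being Ndufaf7.

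The RNA came from hearts of female C57BL/6 mice, acquired at 5 to 6 weeks of age, from a random section that held both ventricles, with 1 mouse per array. Carbon black mice were given 162 µg of the carbon nanoparticle Printex 90 through the trachea, in 40 µl of suspension pushed in with 150 µl of air. Vehicle mice received the suspension medium alone, which was 0.9% NaCl with 10% lavage fluid from C57BL/6 mice, so both arms were instilled with lavage fluid. There were 6 carbon black and 6 vehicle hearts at day 1, 5 carbon black and 6 vehicle hearts at day 3, and 5 carbon black and 6 vehicle hearts at day 28. Sample RNA carried Cy5 and a pooled universal mouse reference RNA carried Cy3 on all arrays. All values below are log2 ratios of heart over reference, so a value of 1 means a doubling relative to the reference, or differences between such ratios.

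Complex I takes electrons from NADH and passes them through a flavin and a chain of iron-sulfur clusters to ubiquinone, and it pumps protons across the inner mitochondrial membrane. The matrix arm holds the flavin and the clusters. The membrane arm holds the proton pumps, which the mitochondrial genome encodes, surrounded by accessory subunits from the nucleus. Assembly factors, many named Ndufaf, build the enzyme and are not part of it. The heart depends on oxidative phosphorylation for its ATP, and cardiomyocytes are packed with mitochondria. Genes of the respiratory chain are known targets of the transcription factors NRF1, GABP (an ETS factor) and YY1.

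Promoters were available for 37 of the 41 members as windows of 250 bases before to 50 bases after the start (RefSeq, GRCm38.p6). The NRF1 letters GCGCA and GCGC, separated by any 1 base, occurred on either strand in 8 of the 37 member promoters (21.6%), against 6.60% of all 17492 protein-coding promoters. The YY1 letters ATGGCGG occurred in 9 of the 37 (24.3%), against 5.41% of all, and the ETS letters CCGGAAG in 5 of the 37 (13.5%), against 11.9% of all. All motifs were searched on both strands. At least 1 of the 3 was found in 20 of the 37 (54.1%), against 20.9% of all promoters, and the median GC content of the windows was 59.3% in members and 56.3% in all. These shares are descriptions of letters, and no binding was measured. The 4 promoters below are examples. Ndufb11 and Ndufb7 had the smallest unadjusted p for carbon black over the days together, though neither passed the adjusted threshold. Ndufs6 and Ndufs3 had values closely alike across arrays (r = 0.95). Ndufs1 and Ndufa12 were more alike (r = 0.96), and the Ndufa12 window held none of the 3 motifs. Capitals mark motif letters. Ndufb11 lies on chromosome X (chrX:20617570-20617869, minus strand), Ndufb7 on chr8:83566508-83566807 (plus strand), Ndufs6 on chr13:73328433-73328732 (minus strand) and Ndufs3 on chr2:90904672-90904971 (minus strand).
Ndufb11: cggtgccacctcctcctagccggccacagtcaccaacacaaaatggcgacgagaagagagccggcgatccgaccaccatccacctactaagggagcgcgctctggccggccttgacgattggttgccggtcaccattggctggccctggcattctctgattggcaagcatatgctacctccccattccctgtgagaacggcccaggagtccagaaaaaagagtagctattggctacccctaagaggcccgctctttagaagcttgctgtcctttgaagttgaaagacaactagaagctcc
Ndufb7: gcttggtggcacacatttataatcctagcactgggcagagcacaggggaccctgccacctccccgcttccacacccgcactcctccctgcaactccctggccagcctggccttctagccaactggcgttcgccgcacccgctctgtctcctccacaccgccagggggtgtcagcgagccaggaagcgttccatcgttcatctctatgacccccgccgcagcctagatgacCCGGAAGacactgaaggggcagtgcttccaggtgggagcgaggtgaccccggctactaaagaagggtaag
Ndufs6: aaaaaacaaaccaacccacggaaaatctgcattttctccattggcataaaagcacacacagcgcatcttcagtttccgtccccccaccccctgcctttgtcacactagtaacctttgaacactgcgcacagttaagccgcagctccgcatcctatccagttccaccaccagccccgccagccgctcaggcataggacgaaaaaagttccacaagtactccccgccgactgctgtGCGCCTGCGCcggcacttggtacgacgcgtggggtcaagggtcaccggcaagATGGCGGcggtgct
Ndufs3: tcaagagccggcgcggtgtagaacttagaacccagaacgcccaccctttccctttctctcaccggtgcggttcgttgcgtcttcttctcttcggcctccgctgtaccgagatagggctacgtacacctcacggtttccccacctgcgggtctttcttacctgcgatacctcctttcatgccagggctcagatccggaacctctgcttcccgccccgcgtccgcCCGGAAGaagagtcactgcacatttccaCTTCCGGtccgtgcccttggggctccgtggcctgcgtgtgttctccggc
The Ndufb11 window held none of the 3 motifs. The Ndufb7 window held the ETS letters 20 bases before the start, and the Ndufs6 window held the NRF1 letters 16 bases before the start and the YY1 letters after it. The capitals in the Ndufs3 window are ETS letters.

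Nduf transcripts stood well above the pooled reference in the vehicle hearts. The median member had a log2 ratio of 2.02 over the 18 vehicle arrays, and the median of all genes tested was 0.06. The mean ratio was above 0 for 40 of 41 members, against 54.5% of all genes, and above 1 for 38 of 41, against 13.8% of all genes. On all 18 vehicle arrays, 25 members exceeded 1 (5.9% of all genes did so) and 36 exceeded 0 (24.2% of all genes). These ratios describe each transcript relative to the same transcript in the reference, which mixes many tissues, and they do not rank the members by abundance. All arrays had the same dye orientation, so a dye bias of a probe cannot be told apart from its ratio, and the background offset of 50 draws the ratios of dim probes towards 0.

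The 7 core subunits of the matrix arm, which together carry the flavin and the iron-sulfur clusters, had a median ratio of 2.17 (1.74 to 2.51). Ndufv1, which binds NADH and the flavin, had 2.51 ± 0.29 (SD, n = 18 vehicle arrays, as for all levels in this paragraph). Its iron-sulfur partner Ndufv2 had 2.48 ± 0.32. Ndufs1, an iron-sulfur subunit, had 2.17 ± 0.53. Ndufs3 had 2.09 ± 0.28, Ndufs8, another iron-sulfur subunit, had 1.82 ± 0.31, and Ndufs7, which hands electrons to ubiquinone, had 1.74 ± 0.38. The core subunits thus lay within a narrow band, and Ndufs1 spread widely between hearts, with 1 array as low as 0.61.

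The 9 accessory subunits of the matrix arm had a median of 1.74, with the lowest value in Ndufa6 at 0.83 ± 0.59 (SD, n = 18 vehicle arrays). Ndufa6 belongs to the LYR proteins, which dock on the acyl carrier protein, and its arrays ran from -1.06 to 1.62. The 18 accessory subunits of the membrane arm had a median of 2.11, and Ndufb10 (2.97 ± 0.33), Ndufb2 (2.85 ± 0.29) and Ndufa4 (2.84 ± 0.27) had the 3 highest ratios of all members. Ndufa4 shares the name but is now assigned to complex IV, cytochrome c oxidase. Ndufab1, the mitochondrial acyl carrier protein, had 2.42 ± 0.39.

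The 5 assembly factors had a lower median ratio, 1.05, than the 35 subunits, 2.08, and their range of -0.18 to 1.38 overlapped the lower end of the subunits, which ran from 0.83 to 2.97. Ndufaf4, which acts early in assembly together with Ndufaf3, had 1.38 ± 0.54 (SD, n = 18 vehicle arrays), and Ndufaf3 had 1.05 ± 0.24. Ndufaf1, a member of the intermediate assembly complex of the membrane arm, had 1.09 ± 0.47. Ndufaf5, which hydroxylates the Ndufs7 protein in human cells, had 0.56 ± 0.43. Ndufaf7, a methyltransferase, was the only member with a mean below 0, at -0.18 ± 0.31.

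**Figure D1:**
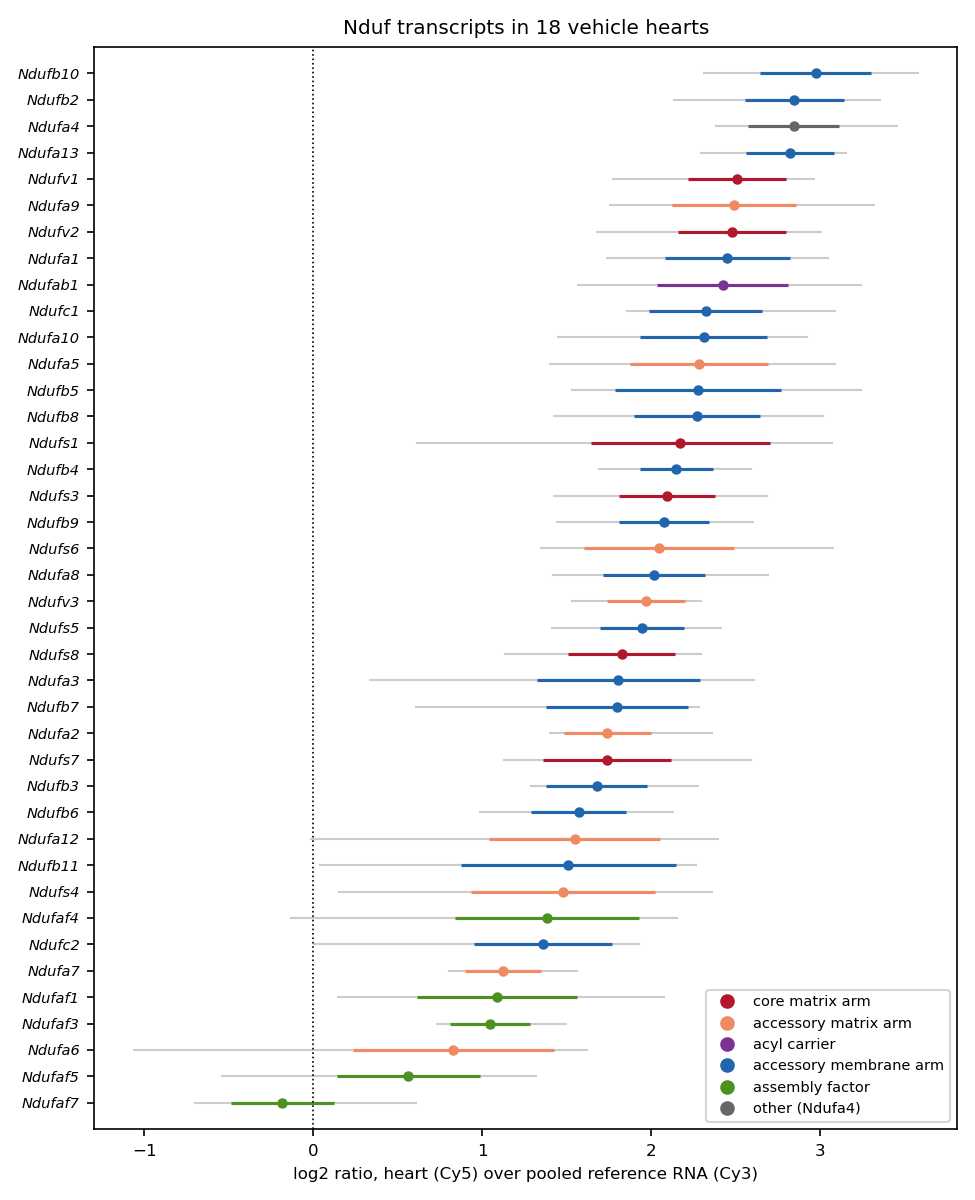
Log2 ratio of heart RNA (Cy5) over pooled reference RNA (Cy3) for 40 of the 41 Nduf genes in the 18 vehicle hearts. Points are means, coloured bars are 1 SD, grey lines run from the lowest to the highest array, and colours give the role. Assembly factors (green) gather at the lower end, and Ndufaf7 is the only mean below 0.

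Several arrays stood apart in their tissue markers. Scores for a list of markers were means over the list of the deviation from each gene's median over all arrays. On 5 arrays the atrial score (Myl7, Myl4, Sln and Nppa, 4 of 4 tested) was between -4.23 and -1.33, and the white adipocyte score (5 of 6 markers tested) between -4.72 and -1.85. They were replicate 6 of carbon black at day 1, replicate 2 of carbon black at day 3, and 3 vehicle hearts, namely replicate 2 of day 1, replicate 4 of day 3 and replicate 2 of day 28. On the same scale the median deviation of the 41 Nduf genes on these arrays was 0.06 to 0.51, above 0 on all 5. Low white adipocyte scores were not confined to them. Carbon black day 28 replicate 3 had -4.52 with an atrial score of 0.09 and an Nduf median deviation of 0.34. Carbon black day 1 replicate 5 had -1.90, with -0.21 and 0.27. Carbon black day 1 replicate 6 also had a median sample signal of 746 and a median correlation of 0.768 with its group. Markers that define cardiomyocytes (12 of 12 tested) had ratios of 1.68 to 6.90 over the reference in vehicle hearts, so the labelled tissue was present. In whole tissue, fewer cells of a type and less RNA per cell cannot be told apart.

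No Nduf gene was called for carbon black against vehicle at any day. Treatment and position on the slide were not balanced in the series. Position 4 held 10 of the 16 carbon black arrays and 0 vehicle arrays, and position 1 held 12 of the 18 vehicle arrays. At day 1, limma with Benjamini-Hochberg adjustment over all genes called 0 of 41 members at 0.05, and it called 0% of all genes. At an unadjusted p under 0.05 there were 0 members, against 7.2% of all genes. The median difference of the members was -0.02, with 17 of 41 above 0 (49% of all genes), and single members ran from -0.26 to 0.53. The smallest unadjusted p belonged to Ndufs5, an accessory subunit on the intermembrane side of the membrane arm, which averaged 1.77 ± 0.12 in carbon black hearts and 2.04 ± 0.22 in vehicle hearts (SD, n = 6 each). Its difference was -0.26 (SE 0.13, adjusted p from limma 0.695), all 6 carbon black arrays lay below the vehicle mean, and the groups overlapped. The core subunits Ndufs8 and Ndufv1 differed by -0.25 and -0.22 and the membrane arm subunit Ndufb8 by -0.26, each with 5 of 6 carbon black arrays below the vehicle mean and none called. All 4 signs depended on the scaling, since they turned positive with median centring in place of loess, and those of Ndufs8, Ndufv1 and Ndufb8 also with Agilent's processed signals.

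At day 3, 0 of 41 members and 0% of all genes were called by limma, and 1 member, Ndufb11, had an unadjusted p under 0.05, against 11.1% of all genes. The median difference was 0.06, with 26 of 41 members above 0 (53% of all genes). By role the median was -0.004 for the core subunits, 0.28 for the accessory matrix subunits, 0.04 for the accessory membrane subunits and 0.10 for the assembly factors. On the slide that held replicate 1 of both arms, carbon black exceeded vehicle by 1.74 for Ndufa12 and 1.96 for Ndufa6, both accessory matrix subunits. On the slides of replicates 3 and 4 the differences were -0.05 and -1.11 for Ndufa12, and -0.19 and -0.94 for Ndufa6. The part of single arrays in the role medians was not tested. Besides Ndufb11 and Ndufb7, the members of smallest p were Ndufc1 with a difference of 0.33, Ndufb6 with -0.24 (0.22 with median centring), Ndufa5 with 0.34 and Ndufaf4 with 0.42, none of them called. With 1 array left out in turn, Ndufa5 ran from 0.18 to 0.52 and Ndufaf4 from 0.15 to 0.62.

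At day 28, 0 of 41 members and 0% of all genes were called by limma, and 0 members had an unadjusted p under 0.05, against 2.99% of all genes. Here 37 of 41 members lay above 0, against 51.8% of all genes, with a median difference of 0.18 against 0.01 for all genes. The members above 0 included 5 of 7 core, 9 of 9 accessory matrix, 17 of 18 accessory membrane subunits and 4 of 5 assembly factors. The highest single difference was 0.41 in Ndufb11. The median was 0.09 without vehicle day 28 replicate 6, the array with the lowest Nduf values of the series, and 28 of 41 members then lay above 0. It was 0.10 without carbon black day 28 replicate 3, and 0.27 without the 5 arrays of low atrial score, each with 0 members called.

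Most markers of several tissues lay above 0 beside the Nduf genes at day 28, with none called by limma. Of the cardiomyocyte markers 11 of 12 lay above 0, with a median difference of 0.29, and the cardiomyocyte score ran from 0.04 to 0.29 on carbon black arrays and from -0.58 to 0.11 on vehicle arrays. All 4 atrial markers lay above 0 (median 0.98), with scores of -0.06 to 0.72 on carbon black arrays and -3.53 to 0.41 on vehicle arrays. So did all 3 brown adipocyte markers (median 0.75), with scores of -1.91 to 1.35 on carbon black arrays and -1.97 to 0.20 on vehicle arrays. The 4 smooth muscle markers (median 0.49) and the 5 white adipocyte markers (median 0.44) lay above 0 as well, and 2 of 7 fibroblast markers did (median -0.26). Smooth muscle scores ran from -2.20 to 1.05 on carbon black and from -2.18 to 0.50 on vehicle arrays, white adipocyte scores from -4.52 to 1.43 on carbon black and from -4.59 to 0.97 on vehicle arrays. The part of these markers in the day 28 shift was not tested.

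The sign of the member medians at day 1 depended on the scaling. Median centring of each array in place of loess moved the median over all genes up by 0.21 at day 1, 0.29 at day 3, 0.08 at day 28 and 0.19 over the days together. With it 41 of 41 members lay above 0 at day 1, and the Nduf median exceeded that of all genes by 0.31 at day 1, 0.22 at day 3, 0.37 at day 28 and 0.30 over the days. Over the days together it called 3 members, Ndufb11, Ndufb7 and Ndufc1, among 1375 genes of which 1374 were higher.

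Ndufs7 had the smallest p at day 28. Its carbon black arrays read 1.74, 1.75, 2.51, 2.19 and 1.81, and its vehicle arrays had a lowest value of 1.13, a median of 1.59 and a highest of 2.35. All 5 carbon black arrays lay above the vehicle mean of 1.64, replicate 3 lay above the highest vehicle array, and the groups overlapped. The difference was 0.36 (SE 0.22, adjusted p from limma 1.0). The other members of smallest p were Ndufc1 at 0.30, Ndufb4 at 0.20, Ndufa7 at 0.18, Ndufb3 at 0.25 and Ndufa4 at 0.23.

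Averaged over the 3 days with equal weight, limma called 386 of all genes (1.95%) and 0 of 41 members. With slide, scan day or position on the slide as a fixed term, it called 0 of all genes. Unadjusted p was under 0.05 for 3 members, against 18.3% of all genes. The median difference was 0.07, with 27 of 41 above 0 (50.4% of all genes). Carbon black and vehicle arrays overlapped for all 41 members in each comparison, and the share of all genes that did not overlap was 0.369% at day 1, 0.894% at day 3, 0.389% at day 28 and 0% over the days together. The 95% interval lay within 1.5-fold in either direction for 38 of the 41 members. An F test of whether the carbon black difference changed between days called 0 members and 0% of all genes, and 0 members had an unadjusted p under 0.05, against 0.995% of all genes.

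**Figure D2:**
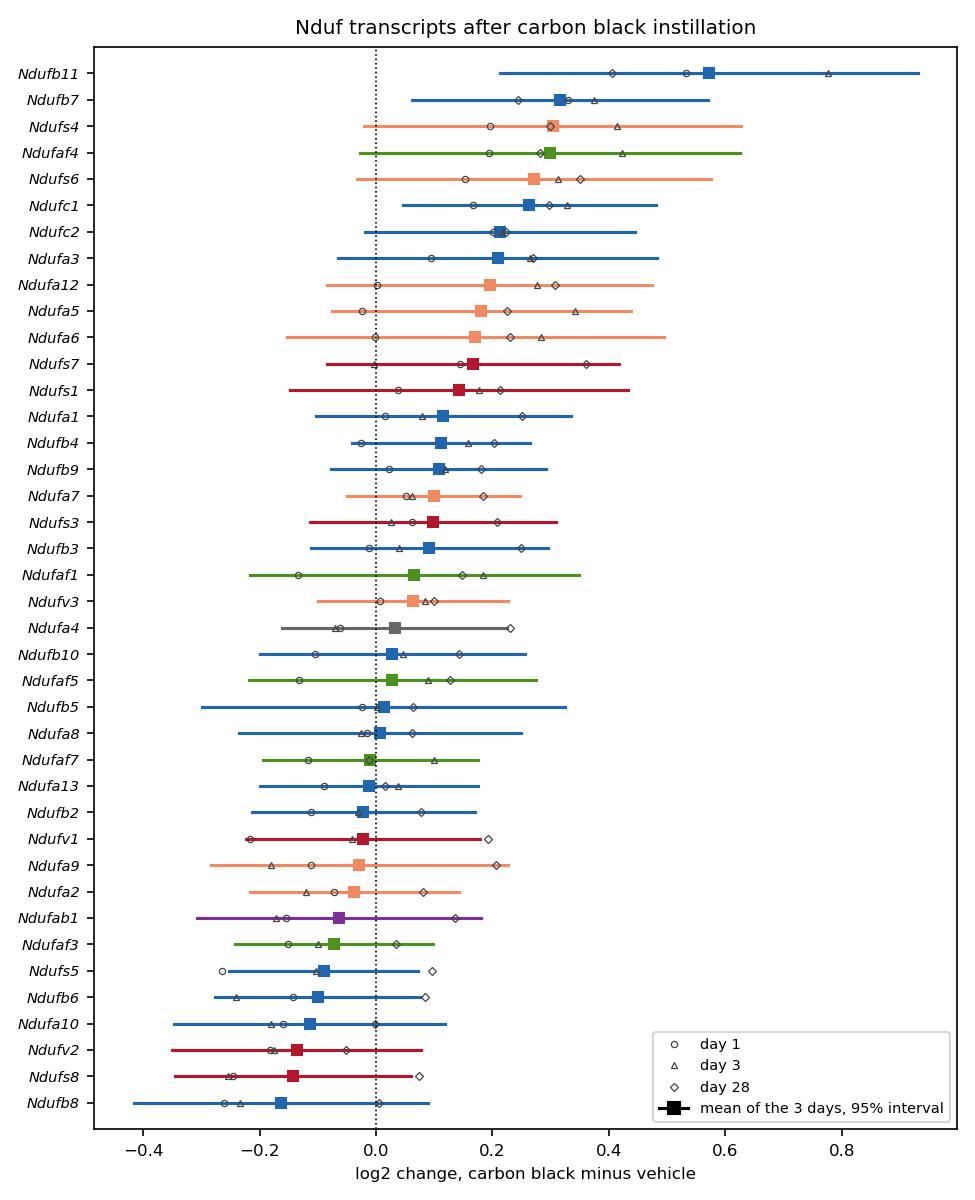
Difference in log2 ratio, carbon black minus vehicle, for 40 of the 41 Nduf genes. Squares are the mean over the 3 days with its 95% interval, coloured by role as in the plot of levels, and open symbols are the single days. The intervals of Ndufb11, Ndufb7 and Ndufc1 lie above 0, and none of the genes passed the adjusted threshold.

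By the probe used for each gene, the 3 members of smallest p over the days together were all accessory subunits of the membrane arm. This ranking rests on the probe, since the other probes of Ndufs6, an accessory matrix subunit, had smaller p than Ndufc1. Ndufb11 is an X-linked subunit whose human counterpart is mutated in a disorder that can include cardiomyopathy. At day 1 its carbon black arrays had a lowest value of 1.62, a median of 2.02 and a highest of 2.55, and its vehicle arrays 0.04, 1.67 and 2.26. At day 3 its carbon black arrays read 1.87, 2.41, 2.30, 1.70 and 2.19, and its vehicle arrays had 0.44, 1.32 and 2.16 as lowest, median and highest. At day 28 its carbon black arrays read 1.85, 1.60, 2.52, 2.34 and 2.15, against a lowest of 1.00, a median of 1.76 and a highest of 2.15 in vehicle hearts. Vehicle hearts reached further down than carbon black hearts at each day, and the groups overlapped at each.

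The Ndufb11 differences were 0.53 at day 1, 0.78 at day 3 and 0.41 at day 28. Over the 3 days the difference was 0.57 (SE 0.18, a fold of 1.49 with a 95% interval of 1.16 to 1.91, adjusted p from limma 0.0712), and 15 of 16 carbon black arrays lay above the vehicle mean. Within 10 pairs of a carbon black and a vehicle array of the same day on the same slide, Ndufb11 was higher in carbon black in 9, by 0.63 on average (SD 0.48). All 10 of these carbon black arrays sat at position 4 of the slide, where no vehicle array sat. With position as a block the difference was 0.26 (adjusted p 0.849), and with Agilent's processed signals it was 0.25 (adjusted p 0.400). It was called without background correction (0.62, adjusted p 0.0336) and from the authors' deposited value table (0.55, adjusted p 0.0362). Ndufb11 also had the largest residual SD of the members, 0.53.

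Ndufb7 faces the intermembrane space. At day 1 it had a lowest value of 1.77, a median of 2.10 and a highest of 2.35 in carbon black hearts, against 0.61, 1.97 and 2.17 in vehicle hearts. At day 3 its carbon black arrays read 2.10, 2.52, 2.15, 1.58 and 2.18, against 1.22, 1.74 and 2.28 as lowest, median and highest in vehicle hearts. At day 28 its carbon black arrays read 1.76, 1.98, 2.43, 2.36 and 2.24, against 1.52, 1.94 and 2.23 in vehicle hearts. The groups overlapped at each day. The difference over the days was 0.32 (SE 0.12, adjusted p from limma 0.158), with 14 of 16 carbon black arrays above the vehicle mean.

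Ndufc1, a small membrane arm subunit, differed by 0.26 over the days (SE 0.11, adjusted p from limma 0.168), with 13 of 16 carbon black arrays above the vehicle mean. Its value was missing on 1 vehicle array of day 1, which the fit left out. A second Ndufc1 probe, as well above background, gave -0.06, so the direction rests on the probe. The next members by p were Ndufs4 (0.30), an accessory subunit whose loss in mice causes a fatal encephalopathy, Ndufc2 (0.21) and Ndufaf4 (0.30), with adjusted p from limma between 0.312 and 0.323.

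**Figure D3:**
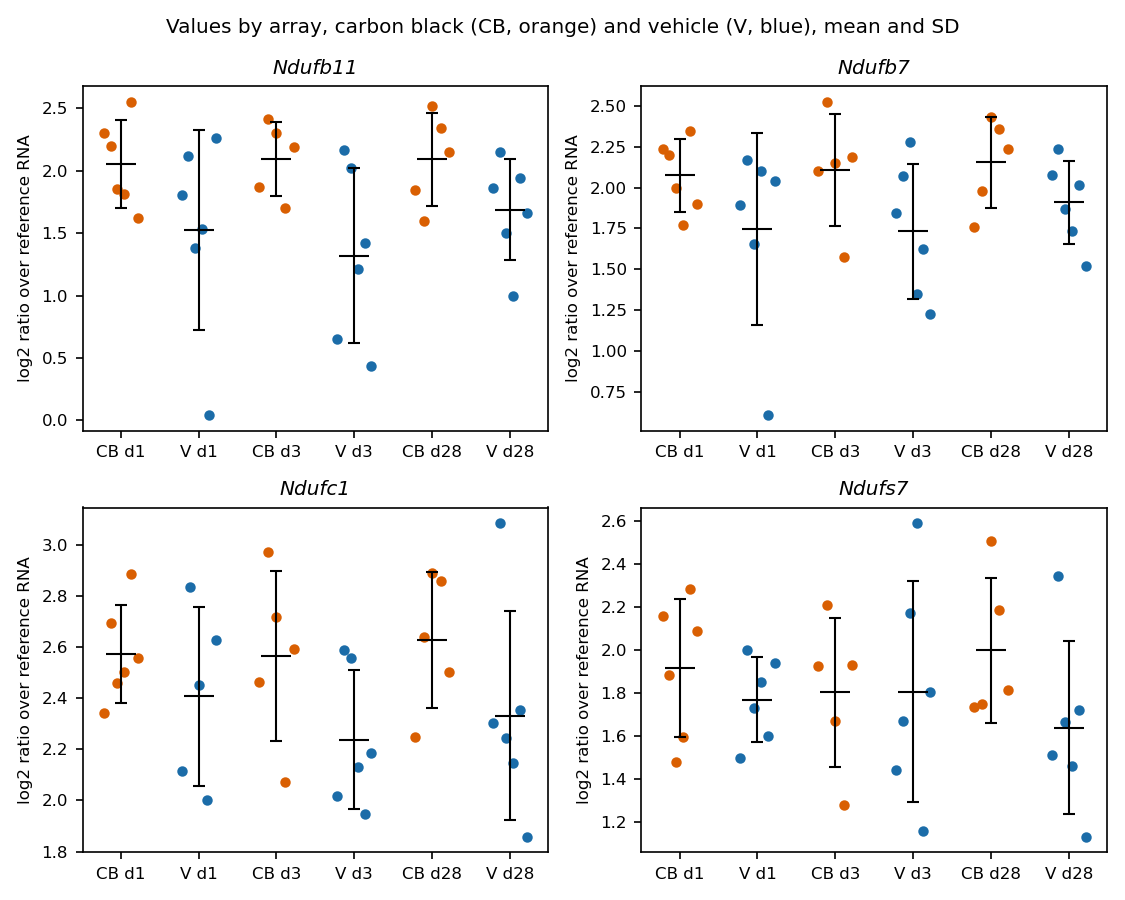
Log2 ratio over reference RNA on each array for Ndufb11, Ndufb7, Ndufc1 and Ndufs7. Orange points are carbon black (CB) and blue points vehicle (V) arrays at days 1, 3 and 28, horizontal bars are group means and whiskers 1 SD. The groups overlap at each day, and for Ndufb11 the lowest arrays, down to 0.04, are vehicle arrays.

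None of the core subunits was called over the days together, and their differences were small beside those of Ndufb11. Ndufs7 differed by 0.17 (95% interval -0.08 to 0.42), Ndufs1 by 0.14 (-0.15 to 0.43) and Ndufs3 by 0.10 (-0.11 to 0.31). Ndufv1 differed by -0.02 (-0.22 to 0.18), Ndufv2 by -0.14 (-0.35 to 0.08) and Ndufs8 by -0.14 (-0.35 to 0.06). Among assembly factors the values were 0.07 for Ndufaf1, -0.07 for Ndufaf3, 0.03 for Ndufaf5 and -0.01 for Ndufaf7, and Ndufa4 had 0.03. Changes beyond about 1.5-fold lie outside these intervals of the core subunits.

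In the vehicle hearts alone, 0 of 41 members and 0% of all genes were called by limma between any days. Day 3 minus day 1 gave a median of -0.13 with 5 of 41 members above 0 (47.8% of all genes), day 28 minus day 1 gave -0.16 with 6 of 41 above 0 (50.9%), and day 28 minus day 3 gave -0.02 with 19 above 0 (54.2%). No member had an unadjusted p under 0.05 in these 3 comparisons, against 2.04%, 1.18% and 4.43% of all genes. The days overlapped for all 41 members, and they did not for 0.0354%, 0.116% and 0.0556% of all genes. The members of smallest p between day 28 and day 1 were Ndufs8 (-0.34), Ndufv1 (-0.33), Ndufa4 (-0.28), Ndufv2 (-0.30), Ndufs5 (-0.22) and Ndufb6 (-0.23). Between day 3 and day 1 they were Ndufa3 (-0.31), Ndufv3 (-0.18, and 0.039 as the mean over its probes), Ndufa8 (-0.27), Ndufb4 (-0.17), Ndufa13 (-0.20) and Ndufa12 (-0.29). With 1 array left out in turn, Ndufa3 ran from -0.50 to -0.04 and Ndufa12 from -0.48 to -0.002. Between day 28 and day 3 they were Ndufa10 (-0.35), Ndufb6 (-0.26), Ndufv1 (-0.29), Ndufs8 (-0.29), Ndufa13 (0.20) and Ndufb11 (0.37). The comparisons share their vehicle arrays with each other and with the carbon black comparisons. The median of day 28 minus day 1 was -0.05 without vehicle day 28 replicate 6, -0.08 without vehicle day 1 replicate 2 and -0.26 without vehicle day 28 replicate 2. That of day 3 minus day 1 was -0.02 without vehicle day 3 replicate 1, -0.03 without vehicle day 1 replicate 2 and -0.06 without vehicle day 3 replicate 5.

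The spread between hearts of 1 group was wider than the differences between groups. The median deviation of the 41 members ran from -0.28 to 0.27 among carbon black and from -0.18 to 0.35 among vehicle hearts at day 1. At day 3 it ran from -0.40 to 0.40 among carbon black and from -0.36 to 0.51 among vehicle hearts, and at day 28 from -0.24 to 0.34 among carbon black and from -0.51 to 0.34 among vehicle hearts. On vehicle day 28 replicate 6, 0 of 41 members lay above their own median over all arrays. Carbon black minus vehicle within the 10 slide pairs gave a member median between -0.92 and 0.52, with 5 pairs above 0 and 5 below.

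**Figure D4:**
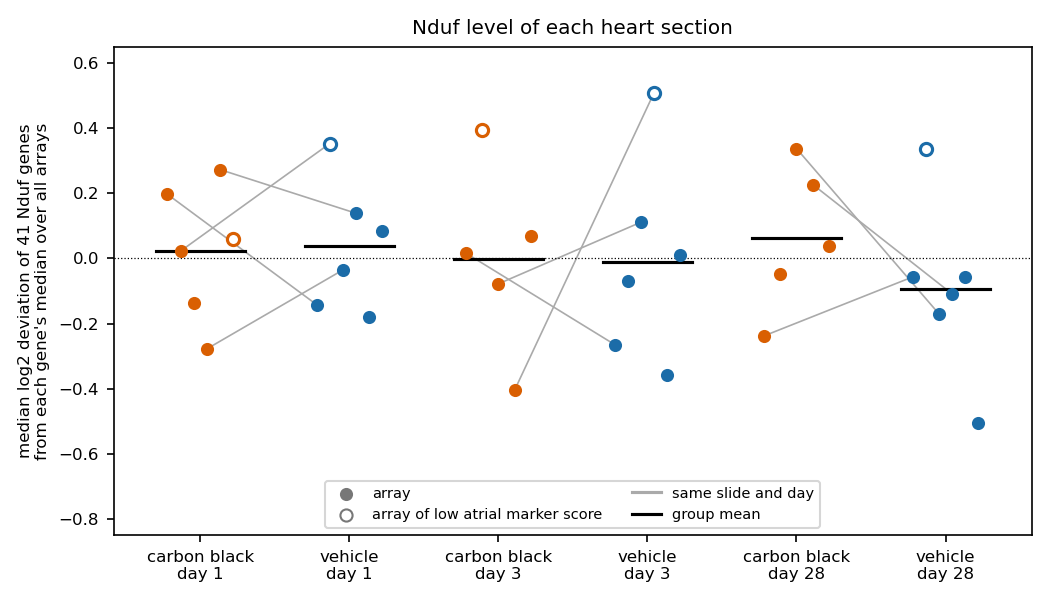
Median deviation of the 41 Nduf genes from each gene's median over all arrays (log2), by array. Orange points are carbon black and blue points vehicle hearts, open points the 5 arrays of low atrial score, black bars group means, and grey lines join arrays of the same slide and day. Vehicle day 28 replicate 6 is lowest at -0.51, and the lines run both up and down.

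Nduf values varied together from heart to heart. After the group means were removed, the median Pearson r between members over the 34 arrays was 0.55 across 820 pairs, and 0.0025 between genes at large. It was at least 0.5 in 59.1% of member pairs, against 5.30% of all pairs. These are descriptions, the arrays share slide, dye orientation and normalisation, and no array was left out of the correlations between members. The highest r joined Ndufs1 and Ndufa12, which sit in the matrix arm, at 0.96, and Ndufs3 and Ndufs6, the promoters of which are shown above, at 0.95. Ndufab1 and Ndufb6 reached 0.94, and the assembly factors Ndufaf1 and Ndufaf4 0.90. Between replicate 1 of carbon black and of vehicle at day 3, on 1 slide, Ndufs1 differed by 1.71 and Ndufa12 by 1.74. Ndufs7 was most like the rest, with a median r of 0.71, and Ndufa13, known also as a cell death regulator, was least like it, at 0.30.

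Hierarchical clustering of these correlations set 5 members apart from the other 36, among them Ndufb11, Ndufb7, Ndufc2 and Ndufb3. Their median r was 0.62 among themselves and 0.32 with the others, whose own median r was 0.61. The clustering chose the 5 from these same correlations, so a higher r within than between follows from the choice. The set was loose, since Ndufb3 had r = 0.29 with Ndufb11 and 0.39 with Ndufb7. Its highest r, 0.63, was with Ndufb4, which lay among the 36. Ndufb11 correlated with Ndufb7 at 0.84 and with Ndufc2 at 0.70. Outside the 5 members it reached 0.70 with Ndufs4, 0.64 with Ndufc1 and 0.57 with Ndufs6. Its r with Ndufs8, -0.12, was the lowest of all member pairs, so the 5 were not sharply separated from the rest. Vehicle day 1 replicate 5 stood apart from its group as lowest for Ndufb7 (0.61) and Ndufc2 (0.0024). The part of single arrays in these correlations and in the clustering was not tested. The residual SD was largest in Ndufb11 (0.53), was 0.48 in Ndufaf4, and was smallest in Ndufa7 (0.21), Ndufb4 (0.22) and Ndufs5 (0.23).

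**Figure D5:**
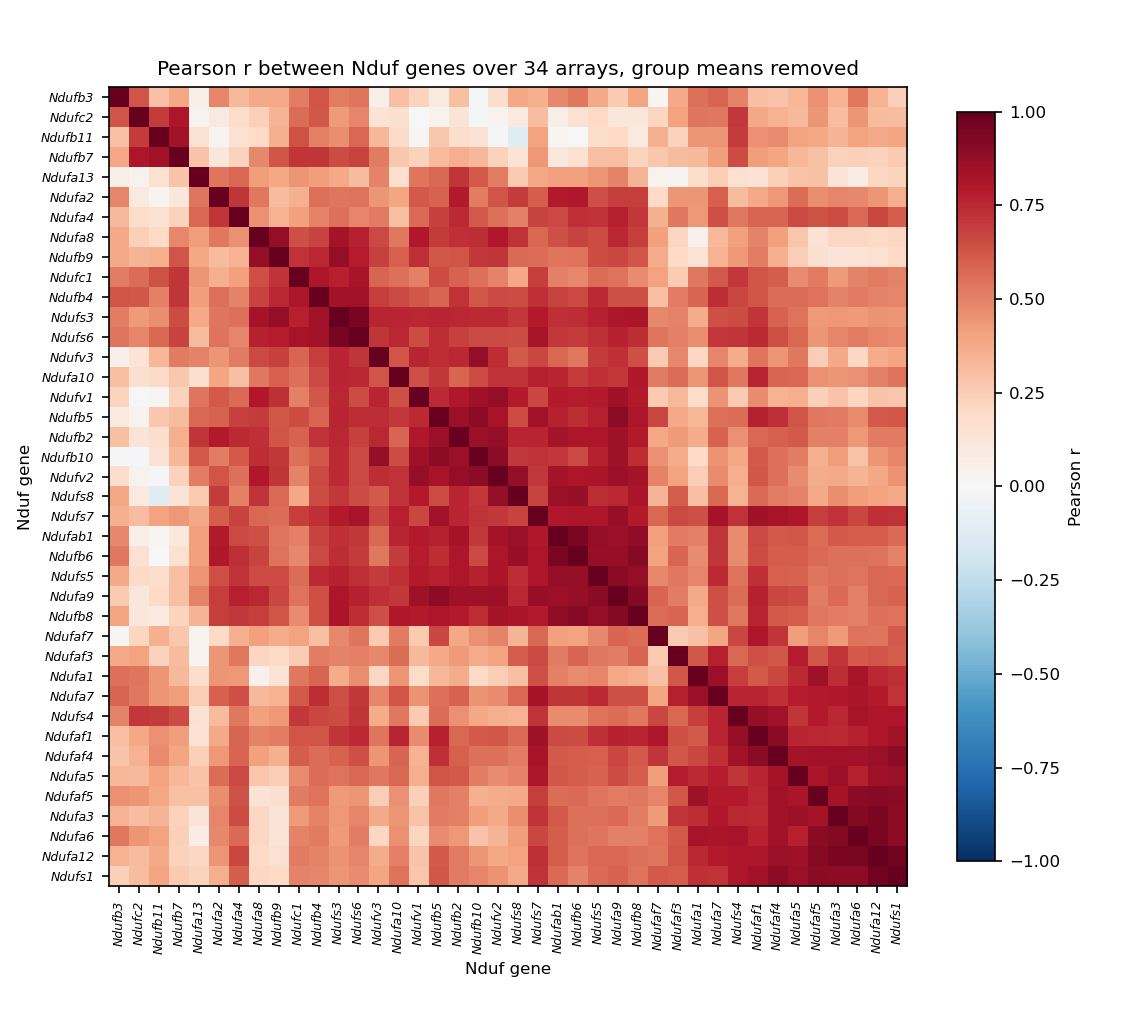
Pearson r between each pair of 40 of the 41 Nduf genes over 34 arrays after group means were removed, ordered by hierarchical clustering, with red above 0 and blue below. Ndufb3, Ndufc2, Ndufb11 and Ndufb7 at the upper left are mostly paler against the rest.

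The Nduf level of an array also followed other genes. Over the 34 arrays its median deviation was set against list scores, which are mean deviations. With respiratory complexes II to V (44 genes) it correlated at r = 0.93 (Spearman rho 0.94, and r = 0.91 without the 2 arrays farthest from the median). With mitochondrial ribosomal proteins (76 genes) it was r = 0.92 (rho 0.93, and 0.91 without 2 arrays). It ran against the white adipocyte score at r = -0.74 (rho -0.70, and -0.74 without 2 arrays), with r = -0.69 within the carbon black arm and -0.81 within the vehicle arm. Against the lymphocyte score (3 of 4 markers tested) it was r = -0.66 (rho -0.56, and -0.51 without 2 arrays), and against the cardiomyocyte score r = 0.41 (rho 0.43). Other scores ran against it as well, namely atrial (r = -0.49, rho -0.22), fibroblast (-0.46), brown adipocyte (-0.42), macrophage (-0.41), smooth muscle (-0.41) and lung (-0.35). The endothelial score had r = 0.01 and the liver score -0.06. Vehicle day 28 replicate 6, lowest in Nduf genes, had a lymphocyte score of 3.53. Of the 3 lymphocyte markers 0 lay above the reference in vehicle hearts (-2.25 to -0.10). The part of these markers in the Nduf values was not tested. Slides held at most 4 arrays, too few for a correlation within a slide.

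Genes linked to complex I were read beside the members. Of 8 assembly factors outside the Nduf names, limma called 0 in each comparison. Over the days together, 2 had an unadjusted p under 0.05 (18.3% of all genes did), Ecsit with a difference of 0.35 (adjusted p 0.0768) and Acad9 with 0.39 (adjusted p 0.0925), both partners of Ndufaf1. Of 9 regulators of respiratory genes 0 were called, and the smallest p belonged to Ppargc1a (0.31, adjusted p 0.228), which encodes PGC-1alpha, and Ppargc1b (0.33, adjusted p 0.253). Of 44 genes of complexes II to V, limma called 1 (1.95% of all genes were called), Cox6b2 (0.35, adjusted p 0.0451), a cytochrome c oxidase subunit known for its expression in testis, and Cox6a2, the muscle form of another subunit, had 0.45 (adjusted p 0.0509). Of 76 mitochondrial ribosomal proteins limma called 1, Mrpl55 (0.74, adjusted p 0.0474). At an unadjusted p under 0.05 there were 12 of the 44 and 18 of the 76. Both calls were lost with slide as a fixed term (adjusted p 0.213 for Cox6b2 and 0.183 for Mrpl55), with position (0.631 and 0.695), with scan day (0.131 and 0.0829), in the slide pairs and with processed signals, and both were kept with slide as a random block. Of the 34 fits that each left out 1 array, 9 called Cox6b2 and 10 called Mrpl55, and both stayed above 0 in all 34. At day 28, 39 of the 44 genes of complexes II to V and 55 of the 76 ribosomal proteins lay above 0, beside 37 of 41 Nduf genes and 51.8% of all genes.

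Where a member had several probes they did not always give the same picture. For 8 members with 12 further probes, 8 of the 12 had the same sign as the probe used for carbon black over the days together, and their median r with it was 0.53. The used Ndufv3 probe had a ratio of 1.97, but its other probes had -0.35 and -0.67 and correlated with it at -0.43 and -0.27. For Ndufs6, a zinc-binding subunit, the used probe differed by 0.27 and the others by 0.67 and 0.57, none of them called. The adjusted p from limma was 0.337 for the used probe and 0.0755 and 0.111 for the others. For Ndufa1 the values were 0.12 and -0.11. Near-identical copies exist for Ndufb4 (Ndufb4b and Ndufb4c), Ndufs6 (Ndufs6b), Ndufs5, Ndufa12 and Ndufab1, and probes of these genes could bind transcripts of the copies.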

How the data were processed

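The members and the lists of other genes were chosen with earlier results of these data known. Scanner files, read by the authors with Agilent Feature Extraction 10.1.1.1 per the file headers, give an intensity for each spot and dye, and the deposited series table gives log2 ratios. RNA of 1 mouse (200 ng) was labelled with Cy5 and hybridised beside a Cy3 reference per the labels' protocols, on arrays of design build mm8 per the file headers.

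Median spot intensities were corrected for background by normexp with an offset of 50, followed by loess within each array (limma version 3.58.1 under R version 4.3.3). Control spots and spots flagged as outliers had weight 0 in the loess and were left out, and spots of 1 probe were averaged. A probe was tested where its Cy5 signal rose well above background in a share of 0.5 or more of some group, and the brightest probe of a gene was kept, with up to 3 missing values. This gave 19798 genes, 12348 with a symbol from RefSeq (GRCm38.p6).

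One fit, lmFit and eBayes with 6 group means and 28 residual degrees of freedom, gave all tests, adjusted by Benjamini-Hochberg over all genes with a threshold of 0.05. The fit was checked on simulated data with independent normal noise for each gene and array. These held no correlation between genes and no slide, position or tissue differences, so the check does not cover such structure in the real arrays. The precision is limited by the number of arrays. Named members were those called, else the 6 of smallest p in a comparison, the core subunits, the assembly factors, Ndufa4, and the 3 highest and lowest in ratio and in residual SD. In the other lists those called were named, else up to 2 of smallest p, and members singled out for their probes, their correlation between arrays or their promoter were chosen after their values were seen. The alternatives were other background corrections, normalisations and filters, the mean over probes, the authors' deposited table, slide, scan day and position as terms, slide pairs, and arrays left out. Their use on Cox6b2 and Mrpl55 was chosen after seeing the data. One member enters the counts and medians, and its own values are not reported here.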

Additional observations from a re-analysis of the deposited data

Results flagged for a closer look

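In 246 checks, 1 for each of 41 members in each of 6 groups, 15 found 1 array apart from its group by Dixon's test, on 9 arrays in all, and chance flags about 1 in 20 such groups. Carbon black day 3 replicate 4 was lowest for Ndufa4 (2.27), Ndufaf4 (0.85) and Ndufs1 (1.82), and vehicle day 28 replicate 6 was lowest for Ndufb2 (2.13). Vehicle day 1 replicate 5 was lowest for Ndufb7 (0.61) and Ndufc2 (0.0024). Vehicle day 1 replicate 2, an array of low atrial score, was highest for Ndufaf1 (2.07), Ndufaf7 (0.61), Ndufb9 (2.60) and Ndufv3 (2.30). Others of low atrial score were highest for Ndufa2 (vehicle day 3 replicate 4, 2.36), Ndufa1 (vehicle day 28 replicate 2, 2.90) and Ndufaf7 (carbon black day 3 replicate 2, 0.10). Ndufb3 on carbon black day 1 replicate 5 (2.18) and Ndufaf3 on carbon black day 28 replicate 5 (1.26) also stood apart.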

How the results depend on the processing

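Outside the settings that left out 1 array, the counts of Nduf genes called stayed at 0 in every comparison except carbon black over the days together. There median centring of each array in place of loess gave 3 calls (Ndufb11 1.01, Ndufb7 0.75 and Ndufc1 0.70), loess without background correction gave 1 (Ndufb11, 0.62), and the authors' deposited table gave 1 (Ndufb11, 0.55). Under median centring the Nduf median was 0.52 at day 1, 0.50 at day 3, 0.45 at day 28 and 0.49 over the days together. It also lowered the median ratio over the reference in vehicle hearts to 1.04, which was 1.74 in the authors' deposited table, and it called 1375 genes over the days, 1374 of them higher, against 386 with 263 higher. It turned the sign at day 1 for Ndufb8 (0.35), Ndufs5 (0.36), Ndufs8 (0.17) and Ndufv1 (0.36), and at day 3 for Ndufb6 (0.22). Processed signals turned Ndufb8 (0.00961), Ndufs8 (0.071) and Ndufv1 (0.033) at day 1, and the mean over probes turned Ndufv3 between vehicle days 3 and 1 (0.039). The cause was not tested. Over all genes, the days together gave 1485 calls without background correction, 1490 from the authors' table, 148 with no filter on dim probes, 132 with the mean over probes, 1026 without the 5 arrays of low atrial score, 1 without the 3 vehicle day 3 arrays of highest liver score, and 0 with processed signals, with slide, scan day or position as a fixed term, and in the slide pairs.

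Leaving out each array in turn gave 0 to 1 Nduf genes called over the days together, Ndufb11 being called without vehicle day 1 replicate 2 or 6 and without vehicle day 3 replicate 2 or 3, with a difference of 0.47 to 0.63 over all such fits. The medians ran from -0.09 to 0.04 at day 1, from -0.005 to 0.16 at day 3, from 0.09 to 0.27 at day 28 and from 0.04 to 0.12 over the days. With replicate numbers, no paired analysis was possible because they were given in accession order and the labels pair no animals, so pairs were formed only from arrays of 1 day on 1 slide. The number of arrays and the dim signal of Ndufaf7 limit what could be seen.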
